A study of Mus musculus with 2 samples.

Results

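The 61 Kcn genes examined here are all the genes whose symbol starts with Kcn among the 14425 genes of a single-cell RNA table from the mouse spiral ganglion, whose neurons connect the hair cells of the cochlea to the brain. Membership was set by name alone and no measured value decided it, though the gene group was taken up with earlier results of these data known. By family they comprise pore-forming subunits of voltage-gated, calcium-activated, sodium-activated, inwardly rectifying and leak channels, auxiliary subunits, and 3 other RNAs (Kcnq1ot1, Kcnmb4os2 and Kcnrg) that do not encode channel subunits.

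The study has 2 libraries, so 1 per genotype, made with the 10x Genomics 3′ v3 chemistry. The genotype of the controls (library iCON) was Runx1-CreER/+; Ai14/+, and that of the library labelled iCKO was Runx1-CreER/Runx1F; Ai14/+. Both therefore carried the tamoxifen-inducible Cre recombinase under the name of the Runx1 gene and the tdTomato reporter Ai14, both received tamoxifen on postnatal day 1, and only iCKO carried the floxed Runx1 allele (Runx1F). Cochlear tissue from males and females was collected from postnatal day 27 to postnatal day 29 and sorted for tdTomato, which enriches for cells in which the reporter was on. How many animals went into each library is not stated. The labels give neither the cells in which the driver is active nor how completely the allele was recombined.

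The iCON library held 462 cells with a median of 49725.5 UMIs (unique molecular identifiers, 1 per captured RNA molecule) and a total of 22011292, and the iCKO library held 407 cells with a median of 33602 and a total of 13743824. No barcode was shared. The gene targeted by the floxed allele had no lower level in iCKO: mean Runx1 was 1.12, 0.159 and 1.07 per 10000 UMIs in iCON and 1.44, 0.929 and 1.18 in iCKO in the Lypd1-high, Calb2-high and Calb2-intermediate cell sets defined next. The part of Runx1 that is floxed is not stated, and 3′ tags outside a deleted part check nothing, so no direction below rests on loss of Runx1.

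Cells were placed in sets by 2 genes that mark neuron subtypes, on the linear scale. Lypd1-high cells had Lypd1 at 10 or more per 10000 (1000 CPM) and numbered 180 in iCON and 126 in iCKO. Calb2-high cells had Lypd1 below 1 and Calb2 at 100 or more per 10000, and numbered 85 and 201. Calb2-intermediate cells had Lypd1 below 1 and Calb2 from 10 to under 100 per 10000, and numbered 139 and 52. The other 58 iCON and 28 iCKO cells were outside these sets. The cells of the sets carried neuron markers, with summed levels of 6 such genes of 166 to 232 per 10000 in the 3 sets of both libraries. Rbfox3, 1 of the 6, differed between sets. It was at 1.96, 0.297 and 0.949 in iCON Lypd1-high, Calb2-high and Calb2-intermediate cells, and at 1.86, 0.469 and 1.05 in iCKO. Of the 6 type II markers, Gata3 was at 0.296 to 0.423 in the 3 iCON sets, Smad3, Prph and Etv4 were at 0.0169 or less in each, and Th and Plk5 were at 0. In the iCKO sets Th was at 0 and Plk5 at up to 0.00232. The sets are cut at levels of Lypd1 and Calb2 that differ between the libraries (mean Calb2 in Lypd1-high cells was 7.39 in iCON and 47.7 in iCKO), so a set need not hold the same neurons in both.

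Potassium channels set how a neuron repolarises and how often it can fire. In auditory neurons, Kv1 channels open near rest and limit firing to the onset of a stimulus, Kv3 channels open only at strongly depolarised voltages and end each action potential quickly, and Kv4 channels with their KChIP partners carry a fast inactivating current. Leak channels of the K2P family and inward rectifiers set the resting potential, and calcium-activated channels add repolarisation after calcium entry.

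Because the genotypes differ in a Runx1 allele, and RUNX1 is a DNA-binding transcription factor, the 250 bases before the transcription start were read for the core letters of RUNX sites, TGTGGT or TGCGGT on either strand. No position can match both. Of the promoters in the table, 17.1% (2374 of 13886 starts) had such letters within 250 bases, and of those of Kcn genes 14.5% (9 of 62 starts). Of the 61 Kcn genes, 42 matched a promoter in the table and 9 held the letters (21.4%, against 20.3% of listed genes with a promoter). Shown are 3 upstream windows from RefSeq, build GRCm38.p6, of genes that the results below turn on: Kcnd2 (chr6:21215096-21215345, plus strand) and Kcnip2 (chr19:45816064-45816313, minus strand), both without those letters, and Kcnk10 (chr12:98575128-98575377, minus strand), which holds TGCGGT (capitals) 23 bases before the start. The other Kcnk10 start in the table has no such letters in its window. Each is written 5′ to 3′ on its gene's strand. None of the 3 windows overlaps an annotated exon. A match is a description of letters, not a bound site.
Kcnd2: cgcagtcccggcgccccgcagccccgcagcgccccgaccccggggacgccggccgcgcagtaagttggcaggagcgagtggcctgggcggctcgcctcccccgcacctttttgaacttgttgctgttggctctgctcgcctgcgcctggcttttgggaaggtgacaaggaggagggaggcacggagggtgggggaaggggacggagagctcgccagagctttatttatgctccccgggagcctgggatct
Kcnip2: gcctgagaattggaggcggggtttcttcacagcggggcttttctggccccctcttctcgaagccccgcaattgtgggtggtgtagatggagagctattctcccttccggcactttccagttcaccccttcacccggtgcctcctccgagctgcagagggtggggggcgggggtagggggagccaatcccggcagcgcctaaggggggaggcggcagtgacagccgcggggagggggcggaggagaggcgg
Kcnk10: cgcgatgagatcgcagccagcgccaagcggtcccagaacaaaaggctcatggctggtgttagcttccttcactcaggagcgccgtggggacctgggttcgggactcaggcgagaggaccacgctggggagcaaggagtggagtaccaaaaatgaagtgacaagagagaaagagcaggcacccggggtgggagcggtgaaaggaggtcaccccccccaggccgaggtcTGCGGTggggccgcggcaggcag

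Across all 462 iCON cells a few Kcn genes made up most of the Kcn RNA. The summed level was 62.3 UMIs per 10000, and the 6 genes with the highest level supplied 79.4% of it, the noncoding Kcnq1ot1 among them. Of the 61 genes, 8 were at 1 per 10000 or more, 20 at 0.1 to under 1 and 33 below 0.1, of which 15 were below 0.01. These are levels of 3′ UMIs, which do not scale with transcript length but do depend on how well each 3′ end is captured and annotated, so small differences between genes carry no order. Kcna1, a Kv1 pore subunit, was at 15.6. Kcnc1, a Kv3 pore subunit, was at 6.66, the K2P leak channel gene Kcnk1 at 6.42, and Kcna2, another pore subunit of Kv1, at 4.94. Kcnq1ot1, a long noncoding RNA transcribed antisense within Kcnq1, was at 3.73, and Kcnq1 itself at 0.0167. Whether counting used strand is not stated in the sources used here, so Kcnq1ot1 and Kcnq1, and likewise Kcnmb4 and Kcnmb4os2, cannot be fully told apart.

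Summed over their members, the Kv1 pore subunits stood at 23.4, 20.4 and 20.8 per 10000 in the Lypd1-high, Calb2-high and Calb2-intermediate sets. The Kv1 beta subunits, cytoplasmic partners of Kv1 pores, stood at 5.62, 4.09 and 4.47. All Kcn genes together summed to 66.7, 61.6 and 65.9, so the total differed between sets by less than the spread among cells (SD 12.2, 11.4 and 10.8).

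In single iCON cells Kcna1 ranged from 5.77 to 48.5 per 10000 in Lypd1-high cells, with a median of 17.4, from 8.64 to 31.3 (median 14.4) in Calb2-high cells and from 6.55 to 29.5 (median 16.1) in Calb2-intermediate cells. Kcnc1 had medians of 6.05, 7.13 and 7.52 in the same order. For both genes, the ranges of the 3 sets overlapped. Kcnk1 had medians of 4.87, 8.73 and 7.72. Its middle 50% of cells, 3.92 to 5.83 in Lypd1-high and 7.55 to 10.2 in Calb2-high cells, did not overlap, although the full ranges did.

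**Figure D1:**
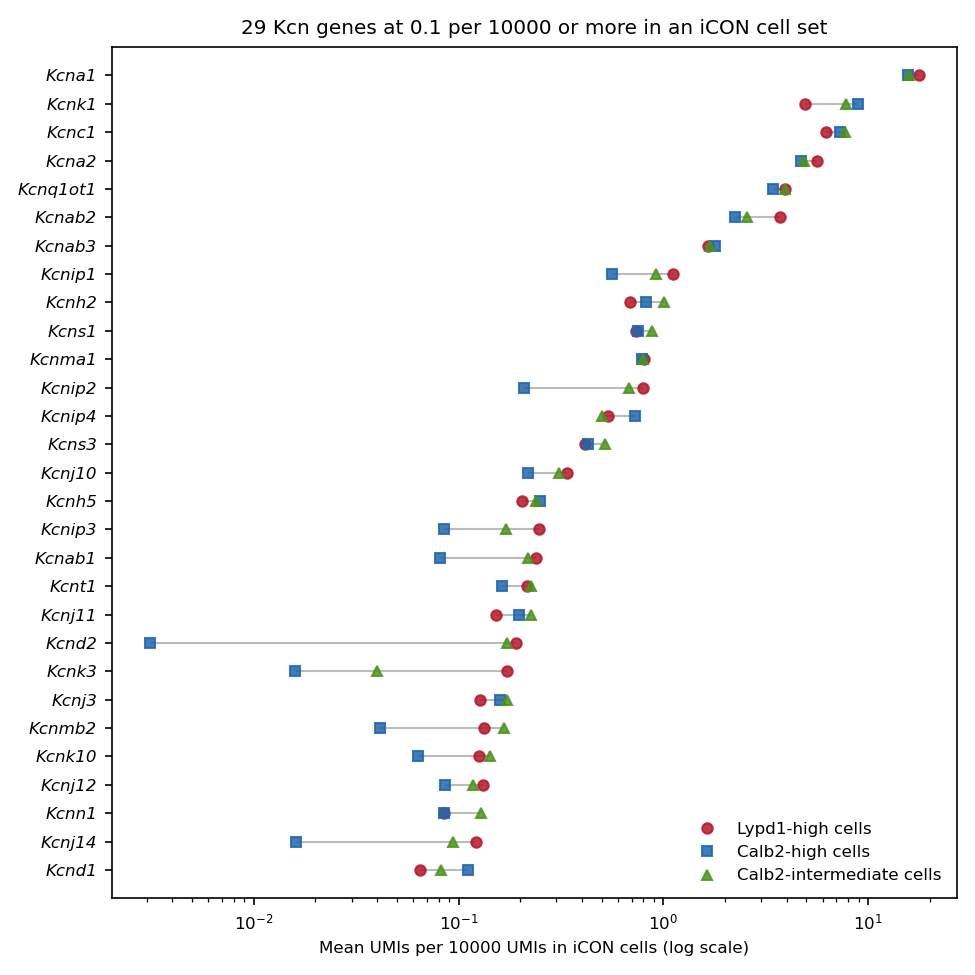
Mean level in UMIs per 10000 (log x axis) of 29 Kcn genes at 0.1 or more in an iCON cell set, ordered by its highest set; circles, squares and triangles are the Lypd1-high, Calb2-high and Calb2-intermediate sets. Kcna1 leads in all 3 sets, and Kcnip2, Kcnd2, Kcnk3 and Kcnmb2 lie far apart between sets while Kcnab3 and Kcnma1 do not.

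**Figure D2:**
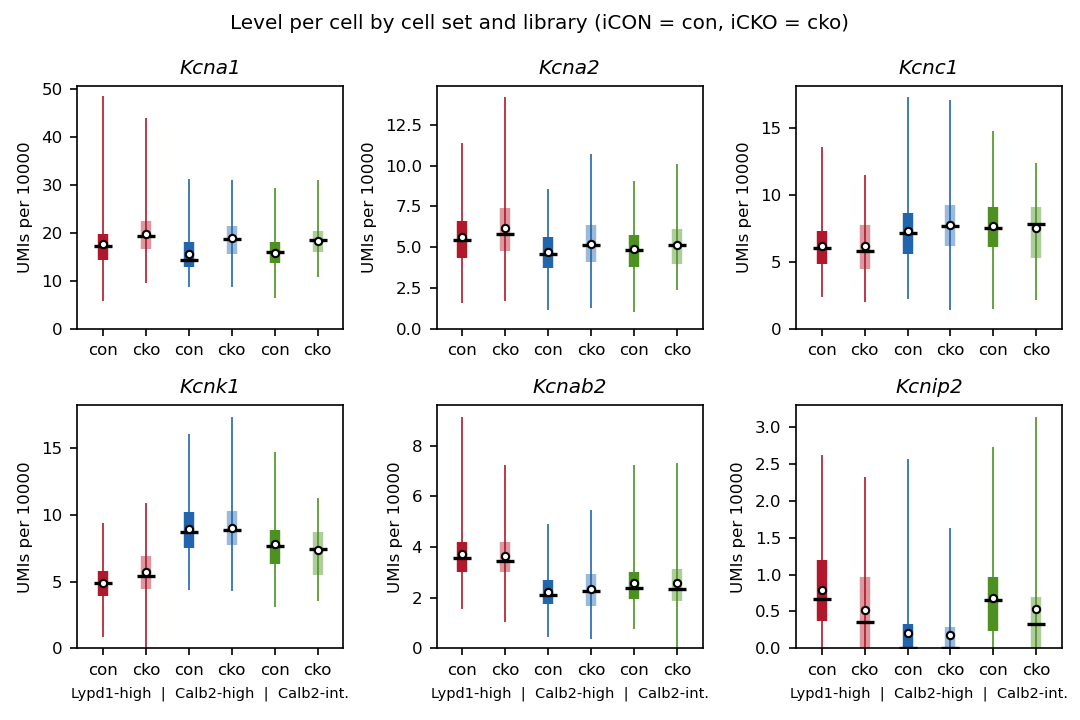
Level per cell of 6 Kcn genes in UMIs per 10000, by cell set (red Lypd1-high, blue Calb2-high, green Calb2-intermediate) and library (con is iCON, cko is iCKO, shown paler); thin lines run from the lowest to the highest cell, thick bars span the middle 50%, ticks are medians and circles are means. Kcnk1 is lower in Lypd1-high cells and Kcnip2 lower in Calb2-high cells in both libraries.

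With 1 library per genotype and cells that are not replicates, no test, p-value or standard error is given. Sets are compared by the log2 ratio of their means with 0.05 per 10000 added to each, for genes whose 2 means averaged at least 0.1 per 10000, and a gene is counted if it passed a fold of 2 between iCON sets (log2 of 1) or a log2 of 0.5 between libraries. The 95% intervals are exact counting intervals of the ratio of summed UMIs, with nothing added, and cover counting error only.

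Between iCON Lypd1-high and Calb2-high cells, 24 of the 61 Kcn genes were above that floor and 3 passed the fold, all higher in Lypd1-high cells. Over all 8307 genes above the floor 2.6% passed, 1.65% higher and 0.951% lower in Lypd1-high cells. The median log2 ratio was 0.18 for the Kcn genes and 0.03 for all genes. Kcnip2, a KChIP subunit of Kv4 channels, was at 0.797 ± 0.568 (SD over 180 cells) against 0.210 ± 0.377 (85 cells). Its log2 ratio was 1.70, from 688 and 85 UMIs (log2 of summed UMIs 2.03, interval 1.71 to 2.38). Kcnab1, a Kv1 beta subunit, was at 0.240 against 0.0808 (log2 1.15, interval 1.12 to 2.20), and Kcnip3, another KChIP, at 0.246 against 0.0848 (log2 1.14, interval 1.003 to 2.03). All 3 were higher in Lypd1-high cells within cells with Xist, cells with a Y-linked gene and cells with low or high myelin RNA, but Kcnab1 was not past the fold in Y-linked cells (0.193 against 0.167, log2 0.16, against 1.87 in Xist cells). With a pseudocount of 0.2 Kcnab1 and Kcnip3 were each at 0.65, short of the fold.

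Other Kcn genes differed between these sets without passing the fold. Kcnip1, a KChIP too, was at 1.11 against 0.559 (log2 0.93) and Kcnab2 at 3.72 against 2.23 (0.73). Kcnk1 was the other way, at 4.93 against 8.95, a log2 of -0.85 (interval -0.91 to -0.79), and Kcnip4, the fourth KChIP, at 0.535 against 0.731 (-0.42). Kcnip4 went the other way in Xist cells (0.507 against 0.363, log2 0.43) and was lower in Y-linked cells (0.575 against 1.4997, log2 -1.31).

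Kcn genes below the floor enter no count. Given here are 4 of them with 1 to 19 UMIs in Calb2-high cells, all higher in Lypd1-high cells. Of these 4, Kcnj14 was picked out after its values were seen. Not every gene below the floor went that way, as Kcnq3 was lower in Lypd1-high cells (levels below). Kcnd2, a Kv4 pore subunit, gave 157 UMIs in Lypd1-high cells (0.190 per 10000) and 1 UMI in Calb2-high cells (0.00312), a log2 of summed UMIs of 6.31 with an interval from 3.81 to 11.62. Kcnk3, a K2P leak channel gene, gave 153 and 8 UMIs (0.172 and 0.0158), Kcnj14, an inward rectifier, 97 and 8, and Kcnmb2, the beta subunit that inactivates calcium-activated BK channels, 122 and 19.

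Between Lypd1-high and Calb2-intermediate iCON cells, of 30 genes above the floor 1 passed the fold, Kcnk3, at 0.172 against 0.0401 in Calb2-intermediate cells (log2 1.30, interval 1.46 to 2.70). The call was lost with a pseudocount of 0.2 (log2 0.63), with no limit on Lypd1 in the Calb2 sets (0.93), and in Y-linked cells, where Kcnk3 was below the floor (0.147 against 0.0202, log2 1.48). Over all 8329 genes 0.78% passed, 0.492% higher and 0.288% lower in Lypd1-high cells. Kcnk1 was at 4.93 against 7.81 (log2 -0.66), Kcnh2, an ERG channel gene, at 0.684 against 1.003 (-0.52) and Kcnab2 at 3.72 against 2.57 (0.53). Kcnc2, a further Kv3 subunit, was below the floor, with 70 UMIs in Lypd1-high cells and 1 in Calb2-intermediate cells (log2 of summed UMIs 5.68, interval 3.15 to 11.00). Kcnd2 did not differ beyond its counting interval (0.190 and 0.172, interval -0.29 to 0.44).

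Between Calb2-intermediate and Calb2-high iCON cells, 27 Kcn genes were above the floor and 3 passed, all higher in Calb2-intermediate cells, against 1.09% of all 8255 genes (0.63% higher and 0.46% lower). They were Kcnip2 (0.683 against 0.210, log2 1.497), Kcnmb2 (0.166 against 0.0411, 1.24) and Kcnab1 (0.218 against 0.0808, 1.04). In Y-linked cells Kcnmb2 (0.48) and Kcnab1 (0.30) were not past the fold, against 1.93 and 1.61 in Xist cells, and in low-myelin cells Kcnab1 was at 0.99. A pseudocount of 0.2 put Kcnmb2 at 0.60 and Kcnab1 at 0.58, short of the fold. Kcnd2 was below the floor, with 109 UMIs against 1 (log2 of summed UMIs 6.23, interval 3.73 to 11.55). Of the 27 genes 23 were above 0, with a median of 0.21 against 0.03 for all genes. Without the share of all genes above 0, which is not given here, the count of 23 carries no reading. The 3 comparisons share their cells, and Kcnip2 and Kcnab1 passed in both comparisons with Calb2-high cells, where the same low values enter each time.

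Kcn genes with similar levels in the 3 iCON sets included Kcnab3, a Kv1 beta subunit (1.66, 1.78 and 1.68 per 10000 in Lypd1-high, Calb2-high and Calb2-intermediate cells), Kcnma1, the BK pore (0.809, 0.784 and 0.798), and Kcns1, a modifier of Kv2 channels (0.738, 0.755 and 0.883). Other levels differed more or were low: Kcnh7 (ERG) was at 0.0859, 0.0725 and 0.0366, Kcnq3 (Kv7) at 0.0348, 0.0729 and 0.0606, and Kcnt1, a sodium-activated channel, at 0.215, 0.163 and 0.226. Kcnn2, a small-conductance calcium-activated (SK) channel gene, was at 0.0975, 0.085 and 0.0948.

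Partners of potassium channels that are not Kcn by name were read from a list of 25 genes, of which 21 are in the table and 17 were above the floor. In iCON, 1 of the 17 passed the fold for Lypd1-high over Calb2-high cells and 1 for Calb2-intermediate over Calb2-high cells, against 2.6% and 1.09% of all genes, in both cases Lgi1, a secreted protein tied to Kv1 clustering. Lgi1 was at 0.568, 0.155 and 0.479 per 10000 in Lypd1-high, Calb2-high and Calb2-intermediate cells, log2 1.595 and 1.37. In low-myelin cells the second ratio was short of the fold (0.402 against 0.213, log2 0.78). None of the 17 passed between Lypd1-high and Calb2-intermediate cells, against 0.78% of all genes. Dpp6, an auxiliary subunit of Kv4 channels, was at 0.664, 0.657 and 0.467.

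Between the libraries, other RNA in the cells moved too. The summed level of the 8 Schwann and satellite glia markers, all listed, was 43.4, 32.2 and 41.7 per 10000 in iCON and 24.5, 19.3 and 20.3 in iCKO in the 3 sets in the same order, and none of the 8 was at 0 in any of them. Cells with Xist and no Y-linked RNA made up 53.9%, 64.7% and 36.7% of the iCON sets and 81.7%, 81.1% and 67.3% of the iCKO sets. In Lypd1-high cells the hair cell list went from 0.0261 in iCON to 0.627, of which Pcp4 made up 0.586, while Otof, a defining gene of hair cells, was at 0 in iCON and 0.00656 in iCKO. The part of these markers in the Kcn differences was tested only as far as the strata go. The results are therefore also given within cells with Xist, cells with Y-linked RNA, and cells with summed myelin RNA (5 genes, among them Mbp, Pmp22 and Mal) below or from 5 per 10000. These strata are parts of the same cells, so agreement in direction within them is no separate support.

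In Lypd1-high cells, 5 of 30 Kcn genes above the floor passed a log2 of 0.5 between iCKO and iCON, 4 higher and 1 lower in iCKO. Of all 8299 genes 4.92% passed, 1.76% higher and 3.16% lower. The median was 0.18 for the Kcn genes, of which 24 were above 0, and -0.01 for all genes. The share of all genes above 0 is not given here, so the count of 24 carries no reading. Kcnn1, an SK channel gene, was at 0.206 ± 0.280 (126 cells) in iCKO and 0.0853 ± 0.141 (180 cells) in iCON, log2 0.92 (interval 0.85 to 1.79). Kcnc2 was at 0.176 against 0.0718, log2 0.89 (interval 0.89 to 1.84). Kcns3, a modifier of Kv2 channels, was at 0.683 against 0.415, log2 0.66 (interval 0.48 to 0.93), and Kcnip4 at 0.783 against 0.535, log2 0.51 (interval 0.30 to 0.71). Kcnip2 was lower, at 0.524 against 0.797, log2 -0.56 (interval -0.83 to -0.38). All 5 kept that direction within Xist cells, Y-linked cells, low-myelin cells and high-myelin cells, but 3 were short of the fold in Y-linked cells (20 iCKO and 79 iCON cells). There Kcnip2 was at 0.763 against 0.818 (log2 -0.10, interval -0.50 to 0.42), against -0.66 in Xist cells, Kcnip4 was at log2 0.31 and Kcns3 at 0.46. Kcnn1 (0.65, interval -0.27 to 2.12) and Kcnc2 (0.74, interval -0.31 to 1.92) passed the fold in Y-linked cells, with intervals that include 0. In high-myelin cells Kcnip2 (-0.43) and Kcnip4 (0.28) were short of it too. With a pseudocount of 0.2 Kcnc2 (0.47), Kcnip4 (0.42) and Kcnip2 (-0.46) were short of the fold, as were Kcnip4 by summed UMIs with the pseudocount (0.47) and after thinning to 16000 UMIs (0.34), and Kcnip2 with Lypd1-high cells taken from 2000 CPM (-0.46).

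The Lypd1-high cells of the 2 libraries differ in Calb2, so these genes were also read within ranges of Calb2, a split chosen after their values were seen. The ranges are wide, and cells within 1 range need not have the same Calb2 in both libraries. Below 10 per 10000 of Calb2 (140 iCON and 30 iCKO cells) Kcnip2 was at 0.853 and 0.708, and at 10 to under 100 (39 and 82 cells) at 0.608 and 0.536. From 100 upward were 14 iCKO cells, with Kcnip2 at 0.0604 and Kcnip4 at 1.17, and 1 iCON cell, with 0.214 and 0.321. Kcnip4 was the same below 10 (0.490 and 0.490) and was at 0.701 and 0.825 from 10 to under 100. Kcns3 was at 0.384 and 0.452, then 0.531 and 0.719. Kcnn1 differed in both ranges, at 0.0889 and 0.225, then 0.0719 and 0.204, and Kcnc2 at 0.0850 and 0.241, then 0.0209 and 0.162. The Kcnc2 level of 0.0209 in iCON rests on 4 UMIs.

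Several Kcn genes of Lypd1-high cells were below the floor, of which Kcnk12 was picked out after its values were seen. Kcnmb2 gave 122 UMIs in iCON and 13 in iCKO (0.133 and 0.0302 per 10000, interval of the log2 ratio -3.11 to -1.34). In the same split by Calb2, it was at 0.155 in iCON and 0.0516 in iCKO below 10. The counting intervals there were apart (0.132 to 0.193 and 0.0169 to 0.121). From 10 to under 100 it was at 0.0612 and 0.0276, with intervals that overlapped (0.0328 to 0.111 and 0.0124 to 0.0568). Kcnk12, a K2P gene, gave 8 and 41 UMIs (interval 2.31 to 4.73). Kcnd2, above the floor, had 157 and 74 UMIs, 0.190 and 0.177 per 10000, a difference within its counting interval (-0.44 to 0.39).

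In Calb2-high cells, 3 of 27 Kcn genes above the floor passed, all higher in iCKO, against 3.39% of all 8150 genes (1.5% higher and 1.89% lower). Of the 27, 25 were above 0, with a median of 0.23 against -0.00 for all genes. That count carries no reading, as the share of all genes above 0 is not given here. Kcnk10, a K2P gene, was at 0.186 ± 0.278 (201 cells) in iCKO and 0.0631 ± 0.121 (85 cells) in iCON, log2 1.06 (interval 1.04 to 2.32). Kcnab1 was at 0.165 against 0.0808, log2 0.72 (interval 0.58 to 1.72), and Kcnip3 at 0.142 against 0.0848, log2 0.51 (interval 0.12 to 1.25). All 3 kept the direction in the 4 strata of sex-linked and myelin RNA. Kcnab1 was at log2 1.22 in Xist cells but at 0.21 in Y-linked cells (interval -0.46 to 1.32) and 0.42 in low-myelin cells, and Kcnip3 was at 0.43 in Xist and 0.27 in low-myelin cells, all short of the fold except the first. Kcnk10 passed in each stratum. With a pseudocount of 0.2 Kcnab1 (0.38) and Kcnip3 (0.26) were short of the fold, as was Kcnip3 by summed UMIs with the pseudocount (0.46) and with the Calb2 split at 15000 CPM (0.42). Kcna1 was at 18.9 against 15.7, log2 0.27, short of the fold.

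Kcnd2 was far apart between the libraries in this set but was below the floor. Calb2-high cells gave 92 UMIs in iCKO (0.136 ± 0.304 per 10000, 201 cells) and 1 UMI in iCON (0.00312, 85 cells), a log2 of 1.81 with the pseudocount and a log2 of summed UMIs of 5.87 (interval 3.35 to 11.19). Markers of other neuron subtypes differed in this set too, with Calb1 at 0.0949 in iCON and 1.36 in iCKO. Ntng1 was at 0.127 and 0.767 and Pou4f1 at 0.00527 and 0.0862, while Lypd1 was lower in iCKO (0.0683 and 0.0203). The part of these markers in the Kcn differences of this set was not tested. Among the iCKO cells of this set, the 149 with a Runx1 UMI held 91 of the 92 Kcnd2 UMIs (0.181 per 10000, median 34063 UMIs a cell) and the 52 without held 1 (0.00702, median 37442). A split on whether a Runx1 UMI was seen is a split on detection at this depth, was chosen after the values were seen, and is given as values only. In iCON, 37 Calb2-high cells with a Runx1 UMI held 0 Kcnd2 UMIs, which allows up to 0.0175 per 10000 by the exact 95% bound, and 48 without held 1.

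Kcnd2 was also read by Calb2 level. In Lypd1-low cells with Calb2 at 30 to under 100, 100 to under 200 and 200 or more per 10000, it was at 0.151, 0.00679 and 0 in iCON (116, 39 and 46 cells) and 0.244, 0.205 and 0.0868 in iCKO (47, 84 and 117 cells). With Calb2 from 10 to under 30 the iCON level was 0.277 in 23 cells and the iCKO level 0.254 in 5 cells. The counting intervals of the libraries overlapped below 100 per 10000 of Calb2 and were apart in both bins from 100 upward. Kcnip2 fell with Calb2 from 30 upward in both libraries: in iCON and iCKO it was at 0.677 and 0.546 at 30 to under 100, 0.329 and 0.307 at 100 to under 200, and 0.109 and 0.0869 at 200 or more. Kcnk10 was at 0.144 and 0.224, then 0.0539 and 0.261, then 0.0709 and 0.132, in these 3 bins. The bins were chosen after the values were seen.

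**Figure D3:**
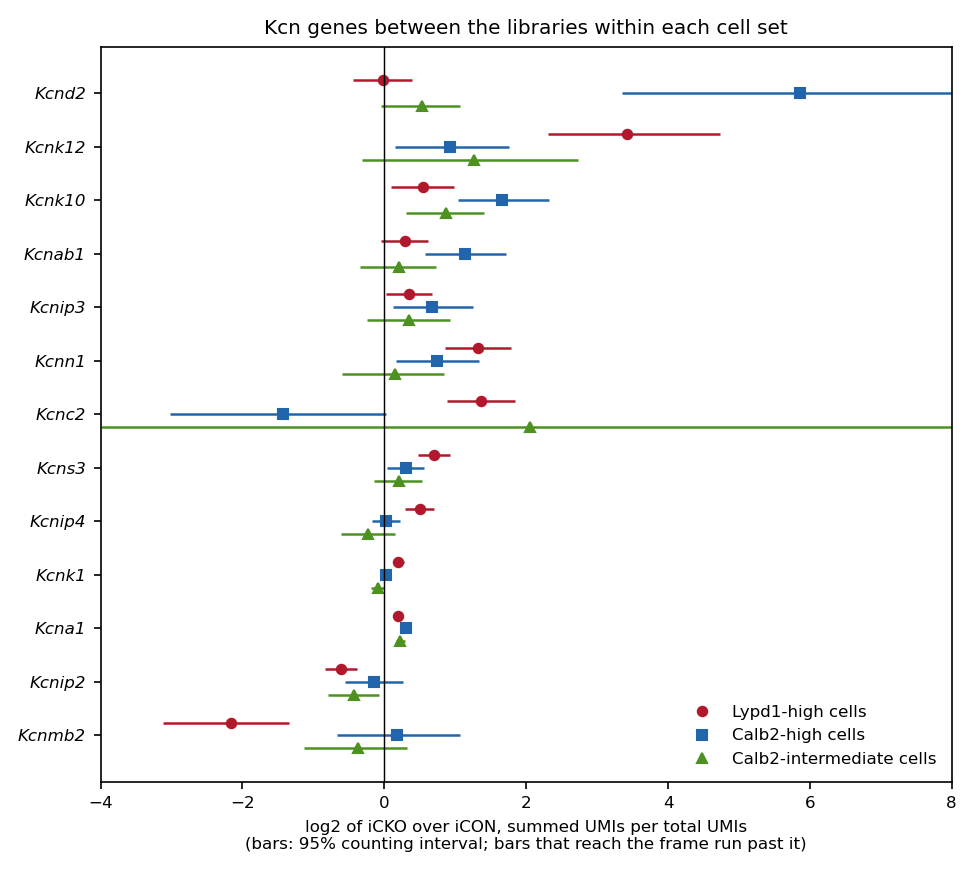
Ratio of iCKO to iCON for 13 Kcn genes in 3 cell sets, as log2 of summed UMIs per total UMIs with nothing added; bars are 95% counting intervals and bars that reach the frame run past it. Kcnd2 lies above 0 in Calb2-high cells and near 0 in Lypd1-high cells, and Kcnmb2 lies below 0 in Lypd1-high cells.

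**Figure D4:**
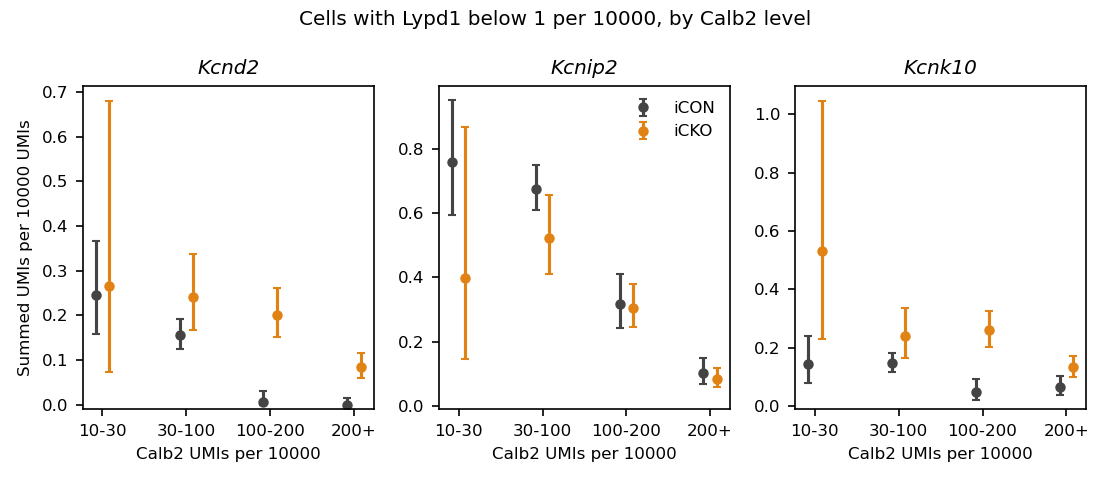
Summed UMIs of Kcnd2, Kcnip2 and Kcnk10 per 10000 UMIs in cells with Lypd1 below 1 per 10000, by Calb2 level in UMIs per 10000 and library (grey iCON, orange iCKO); bars are exact 95% Poisson intervals. Kcnd2 is at or near 0 in iCON cells from 100 of Calb2 upward and is not in iCKO cells, while Kcnip2 declines from 30 upward in both.

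In Calb2-intermediate cells 1 of 29 Kcn genes above the floor passed, Kcnk10, at 0.255 ± 0.313 (52 cells) in iCKO against 0.142 ± 0.187 (139 cells) in iCON, log2 0.67 (interval 0.31 to 1.41), against 6.87% of all 8253 genes (3.2% higher and 3.67% lower). In Y-linked cells it was at 0.176 against 0.164 (log2 0.08, interval -1.17 to 1.16, 16 and 86 cells), against 1.18 in Xist cells, so the call did not hold in that stratum. Nor did it hold with a pseudocount of 0.2 (0.41), after thinning to 16000 UMIs (0.30) or with no limit on Lypd1 (0.36). Kcnip2 was at 0.533 against 0.683, log2 -0.33, and Kcnd2 at 0.245 against 0.172, log2 0.41, neither past the fold. In Xist cells Kcnd2 was past it (0.281 against 0.148, log2 0.74, interval 0.25 to 1.79). Over the alternatives its log2 ran from -0.055 in Y-linked cells to 0.996. Over all cells of the set Kcnk1 was at 7.39 against 7.81. Of the 17 partners above the floor, 0, 1 and 2 passed the fold between the libraries in Lypd1-high, Calb2-high and Calb2-intermediate cells, against 4.92%, 3.39% and 6.87% of all genes. They were Lgi1 in Calb2-high cells (0.243 in iCKO against 0.155, log2 0.52), and Cntn2, which clusters Kv1 channels (0.871 against 0.598, log2 0.51), and Abcc8, a subunit of ATP-sensitive channels (0.352 against 0.199, log2 0.69), in Calb2-intermediate cells. Each was short of the fold in at least 1 stratum: Lgi1 in Xist (0.46) and low-myelin cells (0.15), Cntn2 in Xist (0.48) and high-myelin cells (0.46), and Abcc8 in high-myelin cells (0.25). Of the other partners tied to Kv1 clustering, Cntnap1 (0.595 against 0.690, log2 -0.20) and Cntnap2 (0.752 against 0.932, -0.29) were not past the fold in Calb2-intermediate cells.

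Some Kcn genes followed myelin RNA across all cells; Kcnmb4 was picked out after its values were seen. Kcnj10, an inward rectifier known from glia, was at 0.382 ± 0.377 per 10000 in 353 high-myelin iCON cells and 0.00337 in 109 low-myelin cells, and at 0.467 in 250 high-myelin and 0 in 157 low-myelin iCKO cells. Kcnmb4, a BK beta subunit, was at 0.0759 and 0.0043 in iCON and 0.0868 and 0.00261 in iCKO, and Kcnk2, a K2P gene, at 0.0385 and 0.00151 in iCON. Whether these reads come from glia attached to the neurons was not tested.

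The 32 iCON and 8 iCKO cells low in both Lypd1 and Calb2, which belong to no set, had a different Kcn profile. They carried the type II markers Gata3, Th, Plk5 and Prph at 6.89, 4.14, 3.85 and 1.52 per 10000 in iCON, while the other 2 genes of that list, Smad3 and Etv4, were at 0. Glial genes stood apart too, with Apoe at 10.8 and Fabp7 at 4.22 in the iCON cells against 0.114 to 0.169 and 0.0428 to 0.0978 in the iCON sets. Neuron markers summed to 83.4 in the iCON cells against 166 to 212 in the iCON sets, and Pcp4, a hair cell list gene, was at 17.4 in the iCKO cells. The rest of that list, Myo7a and Otof, was at 0 in these iCKO cells. The part of these cells' other RNA in their Kcn levels was not tested. Their summed Kcn level was 18.7 in iCON and 24.1 in iCKO, well under the 61.6 to 72.4 of the 3 sets in both libraries. Kcna1 was at 2.36 and 3.14 in iCON and iCKO. Kcnc4, a Kv3 subunit with fast inactivation that was picked out after its values were seen, was at 2.34 ± 1.34 in iCON (239 UMIs) and 2.72 ± 1.72 in iCKO (46 UMIs), and at 0 to 0.00295 in the 3 sets. Kcna6, a Kv1 pore subunit, was at 0.561 and 0.725. Of these cells 96.9% had Xist and no Y-linked RNA in iCON and 12.5% in iCKO, so genotype and sex cannot be told apart in them, and no comparison of the libraries was made.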

How the data were processed

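Expression values were deposited by the authors as ln(CPM + 1), a natural log, for every cell. The unit was settled from the values, as linear values sum to 1000000 in all 869 cells. Cell Ranger, Seurat and the build mm10 are named in the submitters' processing notes without role or version; how cells and genes were filtered is not given in the sources used here. A deposited annotation, whose value is a text label (another kind of value), assigns each barcode to a library. All nonzero values (100%) lay within 1e-06 of a whole multiple of the cell's smallest step, so UMI counts were recovered.

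Levels are means over cells of UMIs per 10000. Ratios of means had a pseudocount of 0.05 and a floor of 0.1, and counting intervals are exact (Clopper-Pearson for ratios, Poisson for levels, 95%). A count of 0 was given the limit of 3 counts, or the Poisson bound where so stated. With 1 library per genotype no test was run. Cells are not replicates, and PCR and animal differences are not covered. Cells labelled as Xist or Y-linked have that RNA and not the other. Scrublet in scanpy 1.11.5 called 1 of 462 iCON and 4 of 407 iCKO cells doublets, which stayed in except in 1 alternative. That share is low, and 869 cells are few for such a caller. The ratio calculation was tested on simulated data. Alternatives covered the pseudocount, floor, summed UMIs, thinning to 16000 UMIs, cell strata, doublets, single high cells and set limits. Coordinates of promoters are those of RefSeq on GRCm38.p6. Python 3.11.15, numpy 2.4.6, scipy 1.17.1 and pandas 2.3.3 were used.

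The genes, lists and sets were chosen with earlier results of these data known. Named genes were the 12 Kcn genes with the highest mean in iCON, every Kcn gene past a fold (at most 10 in a direction), and a fixed list of 19 channel genes; some of these genes are not reported here, though all 61 enter the counts, and others are marked as picked out after their values were seen.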

Additional observations from a re-analysis of the deposited data

Results flagged for a closer look

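In Calb2-high cells Kcnip4, Kcnc1 and Kcnk1 had opposite directions between the libraries in the sexes with a 95% counting interval that left out 0 in each sex. The share of all genes that meet this condition is not given here, and the intervals cover counting error only. How many Kcn genes meet it therefore carries no reading. The difference between the sexes was not tested. Other Kcn genes, such as Kcnip2 (-0.43 in Xist and 0.48 in Y-linked cells) and Kcnma1 (0.36 and -0.20), had opposite signs without meeting that condition. For Kcnip4, the log2 of iCKO over iCON was 0.85 in Xist cells (0.694 against 0.363 per 10000, 163 and 55 cells) and -0.37 in Y-linked cells (1.15 against 1.4997, 36 and 28 cells). For Kcnc1 it was 0.26 (7.97 against 6.64) and -0.28 (6.95 against 8.45), and for Kcnk1 0.067 (9.20 against 8.79) and -0.15 (8.29 against 9.21). The ratios over the whole set, 0.08, 0.09 and 0.01, are averages over cells of both sexes, whose shares differ between the libraries.

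The 32 iCON cells low in Lypd1 and Calb2 belong to no compared set. Some Kcn genes were at 0.1 or more per 10000 there and at 2 or more times their level in each of the 3 iCON sets. These were Kcnc4 at 2.34 per 10000, Kcna6 at 0.561, Kcnmb2 at 0.441, Kcnq3 at 0.302 and Kcnc2 at 0.191. The condition admits only genes that are high in these cells. The share of all genes that meet it is not given here, so the number of Kcn genes carries no reading. In the 8 iCKO cells of that kind the same genes were at 2.72, 0.725, 1.06, 0.197 and 0.363.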

How the results depend on the processing

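The number of Kcn genes past the fold moved with the settings. The share of all genes past the fold was worked out at the reported settings only. How the counts below move therefore carries no reading about Kcn genes in particular. The order here is Lypd1-high against Calb2-high, Lypd1-high against Calb2-intermediate and Calb2-intermediate against Calb2-high in iCON (3, 1 and 3), then iCKO against iCON in Lypd1-high, Calb2-high and Calb2-intermediate cells (5, 3 and 1). With no floor the counts were 7, 2, 5, 9, 9 and 4, and with a floor of 0.5 per 10000 they were 1, 0, 0, 3, 0 and 0. A pseudocount of 0.2 gave 1, 0, 1, 2, 1 and 0, and one of 0.01 gave 3, 1, 4, 5, 5 and 1. Thinning to 16000 UMIs gave 6, 1, 2, 8, 4 and 2. Xist cells gave 5, 1, 3, 8, 3 and 3, Y-linked cells 5, 0, 4, 6, 6 and 2, low-myelin cells 5, 1, 4, 8, 3 and 5, and high-myelin cells 3, 1, 2, 4, 3 and 2. A Calb2 split at 15000 CPM gave 2 genes in Calb2-intermediate cells between the libraries, and Calb2 sets with no limit on Lypd1 gave 3 there and 0 between iCON Lypd1-high and Calb2-intermediate cells. The cause of these shifts was not tested, beyond the floor and pseudocount acting on low levels. Without called doublets the counts were 3, 1, 3, 5, 3 and 1.

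The alternatives were run for Kcnd2 in every comparison and for each other gene in the comparison where it passed the fold. Among these ratios, those that changed sign were of Kcnd2: -0.055 in Y-linked and -0.00032 in high-myelin cells for iCKO over iCON Calb2-intermediate cells (0.41 over all cells), 0.034 in Xist cells for Lypd1-high cells (-0.08), and -0.042 in high-myelin cells and -0.0031 with no Lypd1 limit for iCON Lypd1-high over Calb2-intermediate cells (0.11). In Calb2-high cells its log2 of iCKO over iCON was 1.81 as reported, 0.73 with a pseudocount of 0.2, 3.48 with one of 0.01 and 5.87 from summed UMIs with nothing added. No paired analysis was possible because each genotype has 1 library. Counting intervals do not cover animals or library preparation, and the thinner iCKO cells limit genes near 0.1 per 10000.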
